A study of Mus musculus with 24 samples.

Results

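Marginal zone B cells and their transitional precursors were set against follicular B cells and theirs in C57BL/6/J (B6) mice, on 8 of the 24 arrays of a study of splenic B cell subsets in 2 inbred strains. The arrays were chosen by their labels alone. The marginal zone lineage was represented by 2 arrays of T2MZ cells, the transitional cells on the way to the marginal zone, and 2 of mature MZ cells. The follicular lineage was represented by 2 arrays of T2FO cells, the corresponding transitional cells, and 2 of mature FO cells. All came from female mice aged 7 weeks, for which the labels give no treatment or engineered allele. Cells of 8 mice were pooled, depleted of cells bearing CD3 or CD11b, and sorted by the surface markers B220, CD93, CD23, CD24, IgM and CD21/35. The sort was done again in a separate experiment, so each lineage and stage rests on 2 arrays, and no value belongs to a single animal. In the first reading below, p-values measure the spread between these pools only. In the second they measure only how the differences within pairs of arrays varied. In sorted bulk samples, fewer cells of a type and less RNA per cell cannot be told apart. The remaining 4 B6 arrays (T1 and T3, other transitional subsets) and the 12 NOD arrays were left out of both readings below. T1 and T3 values are given beside a few results, and those arrays also helped to choose each gene's probe set.

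Follicular B cells recirculate through the follicles of lymphoid organs and take part in responses that need T cell help. Marginal zone B cells stay at the border between the red and white pulp of the spleen, meet blood-borne antigen there and turn quickly into antibody-secreting cells. Commitment to the marginal zone fate is known to need signalling through the receptor NOTCH2 on the B cell, whose cleaved inner part joins the DNA-binding protein RBPJ and switches on its target genes, and sphingosine-1-phosphate receptors keep the mature cells in place.

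The deposited values are log2 values in which each probe set had been centred on its median over the 24 arrays. They show how arrays differ and give no expression level, and each gene is read from 1 probe set. Every difference below is the marginal zone value minus the follicular value on the log2 scale, with its standard error (SE), and a gene is called at a Benjamini-Hochberg adjusted p under 0.05 over 18193 genes. The number of arrays limits the precision of every value. Each difference is given in a pair of readings. The first fits a mean for each of the 4 groups. The second also pairs the T2MZ with the T2FO array, and the MZ with the FO array, of the same replicate number. The labels do not say what the number stands for, and the pairing rests on the arrays themselves. Deviations of same-numbered arrays from their group means correlated at 0.89 (T2MZ with T2FO) and 0.75 (MZ with FO) across genes, so most of the spread between replicates was shared within a stage. Between the stages same-numbered arrays correlated at -0.67 to -0.51. The 5′ signal of the beta-actin control, a measure of how complete the labelled RNA was, was -0.95 in T2MZ against -1.36 in T2FO for replicate 1, and -3.88 against -4.04 for replicate 2. In the mature pairs it was -3.47 in MZ against -3.51 in FO for replicate 1, and 0.42 against 0.47 for replicate 2. It therefore differed far more between the pairs of a stage than within them. With the 5′ minus 3′ signal of this control as a covariate in place of the pairing, 167 genes separated the lineages.

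With the group means 7 genes separated the lineages over both stages, 6 higher (0.033% of genes) and 1 lower (0.0055%), together 0.0385%. At the mature stage 9 genes were called, all higher (0.0495%), while limma called none at the transitional stage (0%). There 507 genes (2.79%) had an unadjusted p under 0.05, fewer than that threshold would give with no difference at all. With the arrays paired 1194 genes separated the lineages (6.56%), 650 higher and 544 lower. The paired calls numbered 335 at the transitional stage (1.84%), 189 higher (1.04%) and 146 lower (0.803%). At the mature stage they numbered 1119 (6.15%), 586 higher (3.22%) and 533 lower (2.93%). They included all 7 and all 9 genes of the first reading. Of the lineage calls 782 had other probe sets, and for 328 of these all of them had the same sign and at least 25% of the size, while for 561 at least 1 had. The paired reading leans on few arrays, since 2 degrees of freedom remain for each gene before the spread is shared across genes, and with either transitional pair left out no gene was called at that stage. With 1 block across both stages, the mature numbers crossed as their negative correlation calls for, 231 genes separated the lineages, 10 the transitional and 162 the mature arrays. Calls below are those of the paired reading unless the group means are named, and the genes named as called with the group means are all that were.

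As a check of the labels, the markers of the lineages were read first. Asb2, a subunit of a ubiquitin ligase and a target of NOTCH signalling in blood cells, had values of 1.70 and 1.62 in T2MZ and 2.63 and 2.82 in MZ, against -0.46 and -0.02 in T2FO and -0.38 and -0.44 in FO. All 4 marginal zone arrays lay above all 4 follicular ones, and the lineage difference was 2.51 ± 0.15 with the group means (SE, adjusted p = 0.0118). Dtx1, which encodes a NOTCH-binding ubiquitin ligase, read 1.51 and 0.57 in T2MZ and 1.39 and 0.91 in MZ, against -0.50 and -1.33 in T2FO and -0.69 and -0.79 in FO. It was higher without overlap as well, by 1.95 ± 0.17 at the transitional and 1.89 ± 0.17 at the mature stage with the arrays paired (adjusted p = 0.00168 and 0.000511), but not called with the group means (adjusted p = 0.159). A second probe set of Dtx1 went the other way, with a lineage difference of -0.73. Cd1d1 encodes the molecule that presents lipids to natural killer T cells. Its values were 0.24 and 0.01 in T2MZ, against -0.39 and -0.50 in T2FO, and 1.40 and 1.63 in MZ, against -0.59 and 0.43 in FO. The arrays of each stage separated although T2MZ and FO arrays overlapped, and a second probe set gave 1.12 over the lineages. With the arrays paired, the difference was called at the mature stage (1.59 ± 0.21, adjusted p = 0.00309) and not at the transitional one (0.57 ± 0.21, adjusted p = 0.294).

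Fcer2a encodes CD23 and was itself a sorting marker, so it checks the gates and is no finding. It stood at -0.20 and 0.20 in T2MZ, against -0.60 and -0.31 in T2FO, and at -1.85 and -1.21 in MZ, against 0.74 and 2.65 in FO. MZ arrays thus lay below FO arrays while T2MZ arrays lay slightly above T2FO arrays. Cr2, the gene of CD21 and CD35, was higher in all 4 marginal zone arrays (0.49 to 1.23) than in the follicular ones (-0.97 to 0.11). Cd93, the transitional marker, was 0.47 and 1.14 in T2MZ, against 2.72 and 2.77 in T2FO, so the cells labelled T2MZ carried less of this transcript than those labelled T2FO. Ighm, Cd24a and Ptprc overlapped between the lineages.

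**Figure D1:**
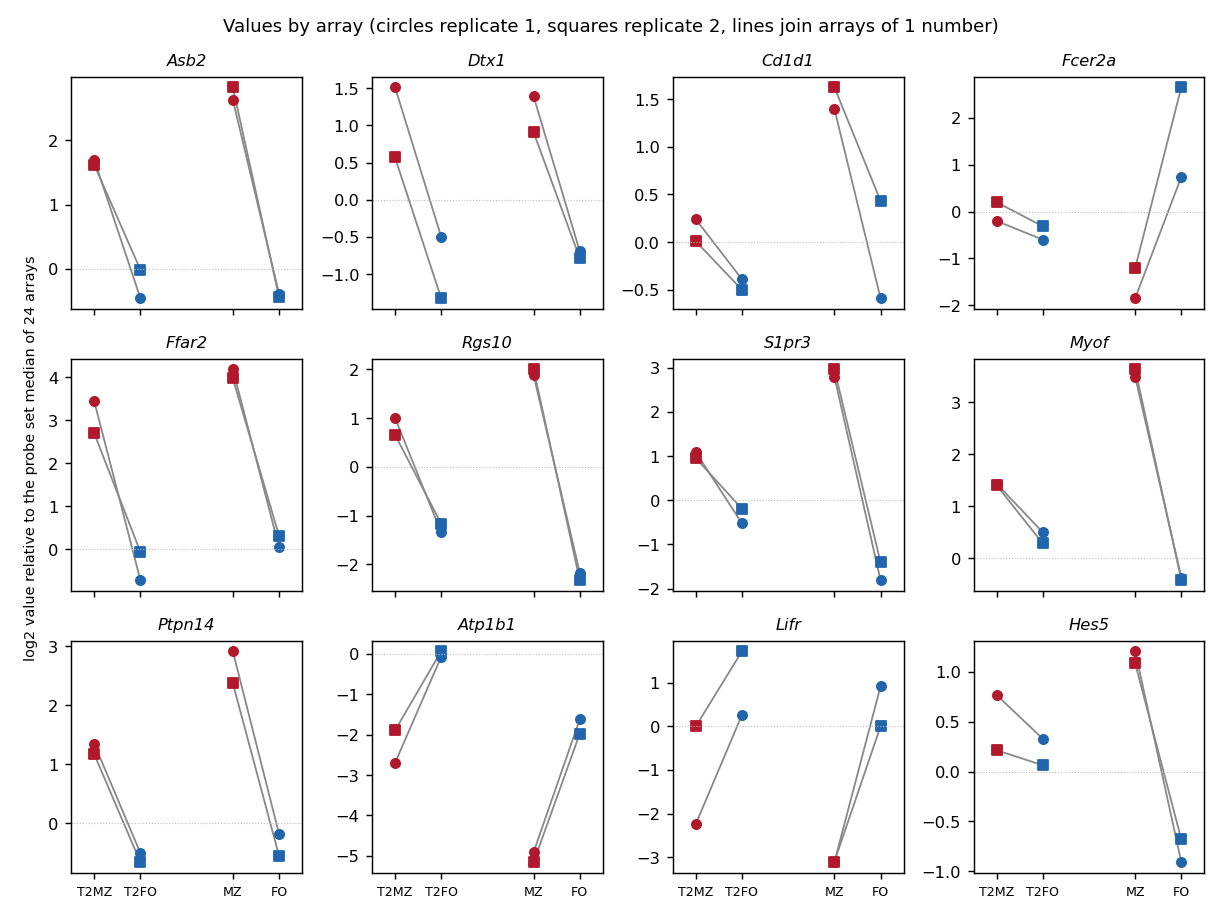
Values of 12 genes on each of the 8 arrays, on the log2 scale relative to the probe set's median over 24 arrays. Red points are T2MZ and MZ, blue points T2FO and FO, circles replicate 1, squares replicate 2, and lines join arrays of the same number within a stage. Asb2, Ffar2, Rgs10, S1pr3 and Ptpn14 are higher in every marginal zone array than in any follicular one, while Fcer2a is lower at the mature stage only.

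The 6 genes higher in the marginal zone lineage in both readings were Ffar2, Rgs10, S1pr3, Asb2, Myof and Ptpn14. Ffar2, a receptor for short-chain fatty acids, had the largest difference of these, with 3.45 and 2.70 in T2MZ and 4.19 and 3.98 in MZ, against -0.72 and -0.06 in T2FO and 0.06 and 0.32 in FO. Its lineage difference of 3.68 ± 0.24 with the group means (adjusted p = 0.019) was made up of 3.46 at the transitional and 3.89 at the mature stage, so it was already near its mature size in T2MZ cells. A second Ffar2 probe set gave 2.51.

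Rgs10, which shortens G protein signalling, and S1pr3, a receptor for sphingosine-1-phosphate, also separated at both stages but more widely in mature cells. Rgs10 read 1.01 and 0.66 in T2MZ, against -1.35 and -1.17 in T2FO, and 1.88 and 2.01 in MZ, against -2.17 and -2.33 in FO. S1pr3 read 1.09 and 0.95 in T2MZ, against -0.53 and -0.19 in T2FO, and 2.80 and 2.97 in MZ, against -1.81 and -1.41 in FO. For both genes the mature values lay further out than the transitional ones, higher in MZ and lower in FO. The lineage difference was 3.14 ± 0.14 for Rgs10 and 2.93 ± 0.16 for S1pr3 with the group means (adjusted p = 0.00722 and 0.00974). Rgs10 has no other probe set among those with 1 gene, while the other S1pr3 probe sets gave 2.17 and 0.31.

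Myof, a ferlin of the plasma membrane, was 1.43 and 1.40 in T2MZ and 3.49 and 3.63 in MZ, against 0.50 and 0.28 in T2FO and -0.37 and -0.43 in FO. Ptpn14, a tyrosine phosphatase, was 1.35 and 1.17 in T2MZ and 2.92 and 2.37 in MZ, against -0.50 and -0.66 in T2FO and -0.17 and -0.55 in FO. Neither gene overlapped between the lineages, and their lineage differences were 2.49 ± 0.12 and 2.42 ± 0.18 with the group means (adjusted p = 0.00722 and 0.0311). The second Myof probe set gave only 0.16, whereas those of Ptpn14 gave 0.87 and 1.48.

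Atp1b1, the beta subunit of the sodium and potassium pump, was the 1 gene lower in both readings. It read -2.70 and -1.90 in T2MZ, against -0.07 and 0.07 in T2FO, and -4.91 and -5.16 in MZ, against -1.62 and -1.97 in FO. Within each stage the marginal zone arrays were lower, although T2MZ and FO arrays overlapped. The lineage difference was -2.77 ± 0.22 with the group means (adjusted p = 0.039). Of its 4 other probe sets 3 were lower as well (-1.63 to -0.57) and 1 gave 0.19.

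With the arrays paired 138 genes were called at both stages with the same sign (0.759% of genes), 99 higher (0.544%) and 39 lower (0.214%) in the marginal zone lineage. Of the 99, 71 had all 4 marginal zone arrays above all 4 follicular arrays, an order found in 2.09% of all genes. Of the 39, 9 had the reverse order, found in 0.726% of all genes. The median difference of the higher genes was 1.49 at the transitional and 1.64 at the mature stage, against 0.0041 and 0.0135 over all genes, and that of the lower ones was -1.21 and -1.08. These orders and medians follow from the way the genes were chosen on the same arrays, so nothing is read from them. Of the 99 higher genes 58 differed more at the mature stage, as did 19 of the 39 lower ones. The differences at the 2 stages correlated at 0.34 across all 18193 genes, which share the arrays of a group and are not independent.

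**Figure D2:**
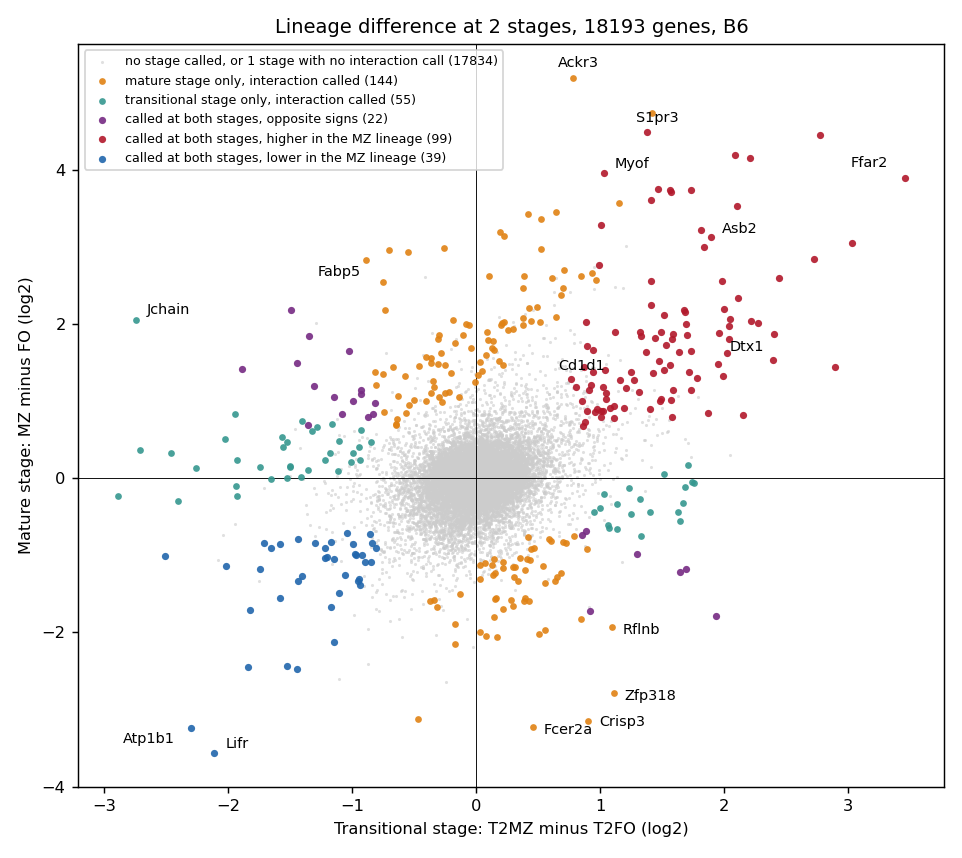
Each point is 1 of 18193 genes, with T2MZ minus T2FO on the horizontal axis and MZ minus FO on the vertical axis, both on the log2 scale. Colours mark the classes of the paired reading: 99 genes higher and 39 lower at both stages, 144 called at the mature stage only and 55 at the transitional stage only with a called difference between the stages, and 22 called with opposite signs.

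Among the genes with the largest differences at both stages, Nebl, an actin-binding protein known from heart muscle, was 1.66 and 2.47 in T2MZ and 4.14 and 3.11 in MZ, against -1.54 and 0.13 in T2FO and -0.54 and -1.11 in FO. Its paired lineage difference was 3.61 ± 0.16 (adjusted p = 2.63e-05), and 1 of its 2 other probe sets gave 3.54 while the other gave 0.10. Ackr2, a scavenger of inflammatory chemokines, was 0.37 and 0.59 in T2MZ and 1.63 and 2.27 in MZ, against -1.61 and -1.85 in T2FO and -2.92 and -1.50 in FO. Its arrays did not overlap either (3.18 ± 0.15, adjusted p = 2.9e-05). Other Ackr2 probe sets gave 0.92 and 2.10 over the lineages, with transitional differences of 0.19 and 0.98. The tetraspanin gene Cd9 was 1.17 and 0.06 in T2MZ and 1.79 and 3.24 in MZ, against -0.67 and -1.22 in T2FO and -1.61 and -0.84 in FO.

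Atxn1, a transcriptional corepressor, differed by 3.04 ± 0.22 over the lineages, and the inhibitory receptor gene Cd300lf by 2.82 ± 0.13. Terb1, which tethers telomeres in meiosis, differed by 2.79 ± 0.16, Rundc3b by 2.64 ± 0.15, Oosp1 by 2.61 ± 0.20 and Pclaf, a partner of the DNA clamp PCNA, by 2.53 ± 0.17. All 6 were called at both stages and did not overlap between the lineages. With the group means their adjusted p ran from 0.0702 (Rundc3b and Oosp1) to 0.619 (Terb1). For each of the 12 named genes of this kind, Ffar2, Rgs10 and S1pr3 among them, all 4 marginal zone arrays lay above both T1 arrays. For 7 of the 12 they also lay above both T3 arrays. The genes were chosen on these marginal zone arrays and no share over all genes was counted, so nothing is read from this order.

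The lower genes of this kind were led by Lifr, the receptor subunit for leukaemia inhibitory factor. It was -2.24 and -0.001 in T2MZ and -3.11 and -3.10 in MZ, against 0.26 and 1.72 in T2FO and 0.92 and 0.001 in FO. The lineages did not overlap, but T2MZ replicate 2 and FO replicate 2 were almost level, and its other probe sets gave -0.73 and -0.44. Ndrg1, a gene induced by hypoxia, was -0.59 and -0.21 in T2MZ and -1.33 and -1.32 in MZ, against 0.95 and 1.31 in T2FO and 0.84 and 1.38 in FO. Pde2a, which breaks down cyclic nucleotides, was -0.74 and -1.03 in T2MZ and -2.89 and -2.57 in MZ, against 0.95 and 0.18 in T2FO and -0.46 and -0.05 in FO. The paired lineage differences of these were -2.84 ± 0.18, -1.98 ± 0.13 and -1.96 ± 0.12 (adjusted p = 8.77e-05, 8.77e-05 and 8.63e-05). Further Ndrg1 probe sets gave lineage differences of -1.16 to 0.04. The other genes of the class without overlap ran from -1.63 (Trib2, a pseudokinase) to -0.86 (Stk24, a kinase), with Chst15, Gpd1l, Lpp and Otud1 between them. For 8 of these 9 genes all 4 marginal zone arrays lay below both T1 arrays, and for 6 of the 9 below both T3 arrays. Here too the same marginal zone arrays chose the genes, so nothing is read from this order.

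**Figure D3:**
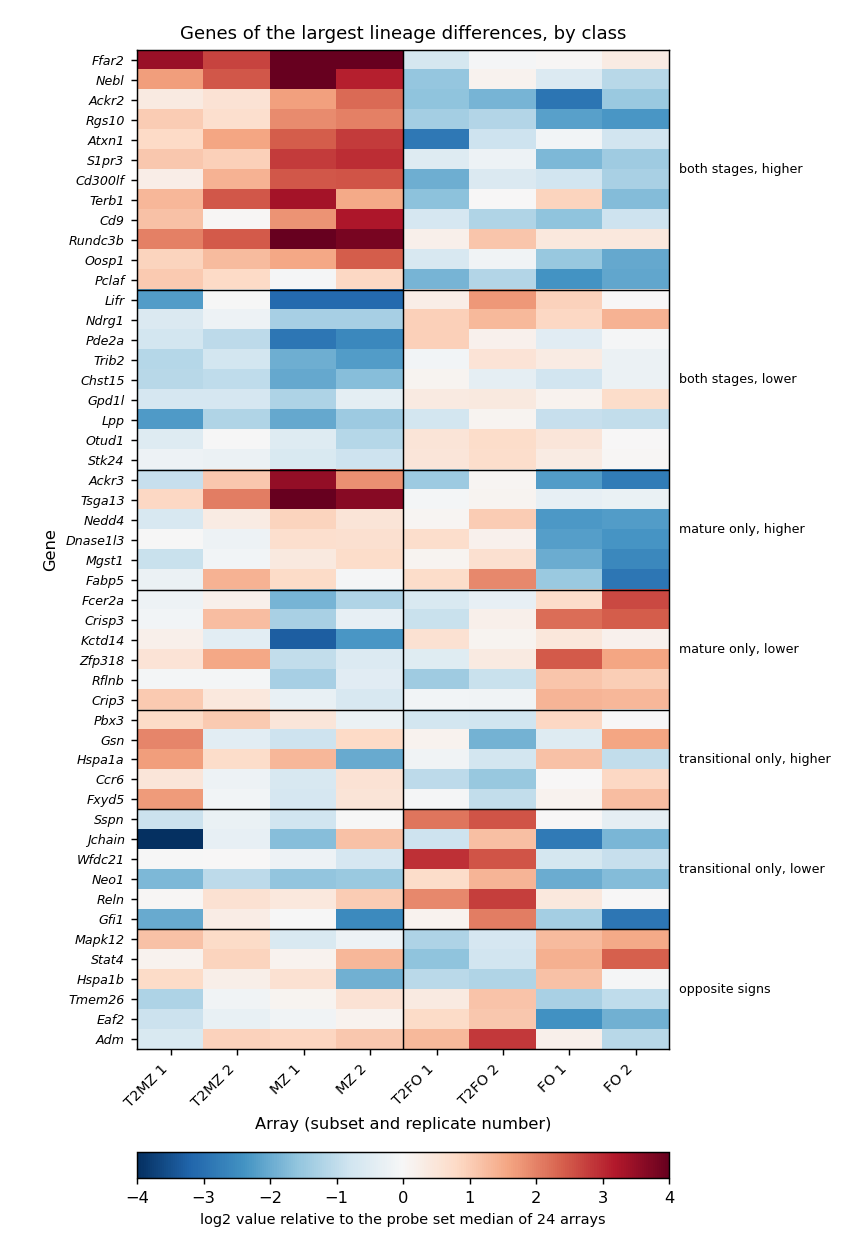
Log2 values on the 8 arrays, relative to the probe set's median over 24 arrays, of the genes with the largest differences in each class of the paired reading, which chose them. Columns are arrays, T2MZ and MZ left of T2FO and FO, and the colour scale ends at 4 in size. In the first 2 blocks the lineages differ in the same direction at both stages. The middle blocks hold genes called at 1 stage, and in the last block the direction turns round between the stages. A colour can be shared by both lineages, as for Rundc3b, which is positive on all 8 arrays, or change within the follicular lineage, as for Ffar2.

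The cell cycle list stood higher in the marginal zone lineage. Of its 19 measured members 10 were called higher and none lower with the arrays paired, against 3.57% of all genes called higher, and 8 of the 10 were called at both stages. The list's median lineage difference was 0.60, against 0.0078 over all genes. Members of this list and of those below were picked with earlier results of these data known. Their counts and medians are therefore no independent evidence of a direction. Cdk1, the kinase that drives entry into mitosis, was 0.98 and 1.13 in T2MZ and -0.28 and 0.69 in MZ, against -1.21 and -1.11 in T2FO and -1.84 and -1.85 in FO. Mki67, the proliferation marker, was 0.51 and 2.13 in T2MZ and 0.83 and 0.85 in MZ, against -0.95 and -0.03 in T2FO and -2.65 and -2.12 in FO. For both genes the lineages did not overlap, and for Cdk1 both T2MZ arrays lay above both MZ arrays.

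Ribonucleotide reductase subunit Rrm2 was 1.13 and 1.91 in T2MZ and 0.23 and 0.93 in MZ, against -1.02 and 0.06 in T2FO and -1.79 and -1.45 in FO. Its paired difference was 2.10 ± 0.12 (adjusted p = 5.91e-05), and its 2 other probe sets gave 1.44 and 1.57. The mitotic genes Ccnb2, Ccna2, Birc5, Bub1 and Top2a differed by 1.72 to 2.14 over the lineages. A further pair, Aurkb (0.60) and Mcm6 (0.62), were called over the lineages but at neither stage. Of the other subunits of the replication helicase, Mcm5 was called at the transitional stage only (0.95), and Mcm2, Mcm3, Mcm4 and Mcm7 had lineage differences of -0.03 to 0.43 without a call. Pcna (0.16) and Tyms (0.14) were not called either. Replicate 2 of the T3 arrays read 2.25 for Cdk1 and 2.49 for Mki67, above all 8 arrays compared. The other probe sets of Top2a gave -0.14 and 0.42.

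**Figure D4:**
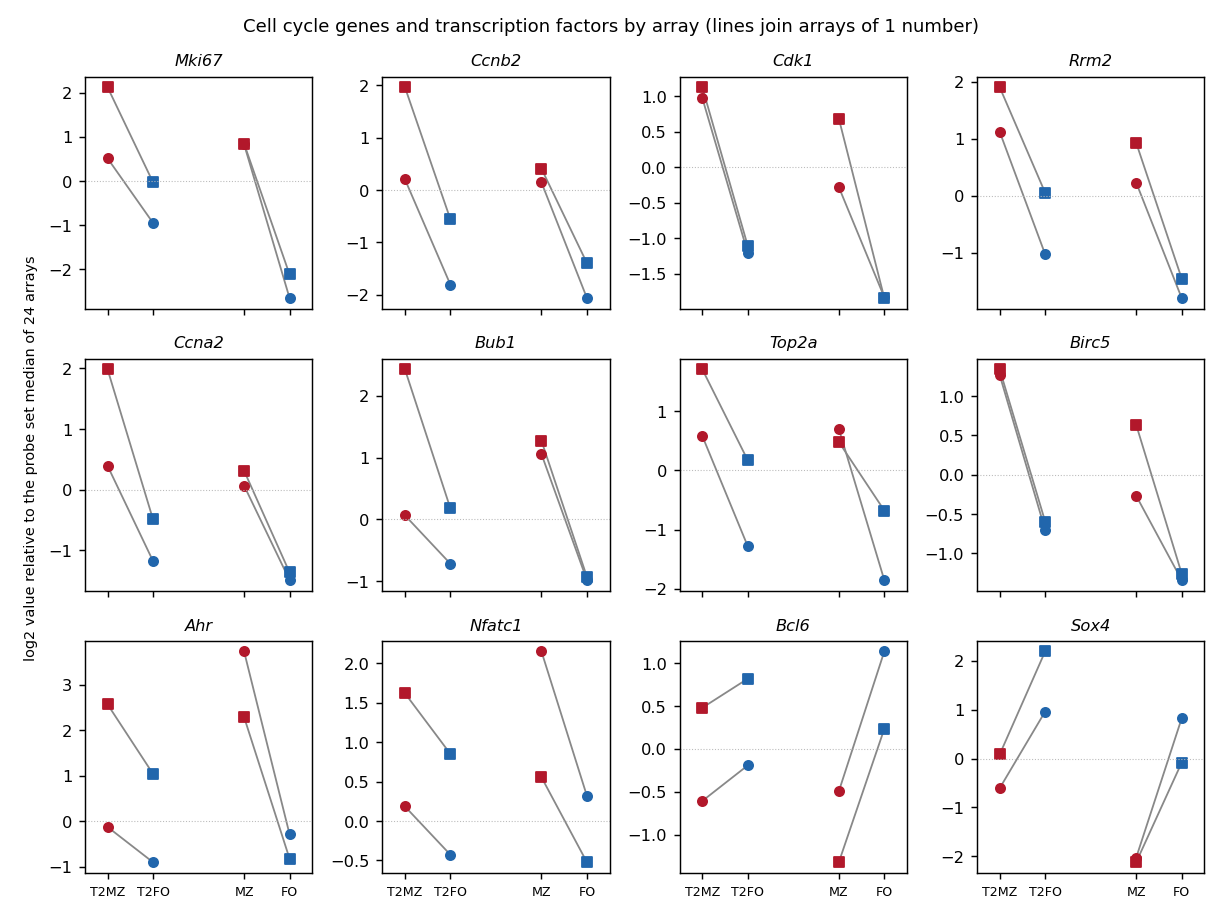
Log2 values of 8 cell cycle genes and 4 transcription factor genes on the 8 arrays, drawn as in the plot of marker genes. In all 4 pairs the 8 cell cycle genes, Ahr and Nfatc1 are higher in the marginal zone array and Bcl6 and Sox4 are lower.

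Asb2, Dtx1 and Hes5 are genes that NOTCH signalling is known to raise, and all were called higher, so the sequence before their starts is shown together with the letters GTGGGAA that RBPJ prefers. They are the 250 bases before the annotated start in RefSeq (build GRCm38.p6), on the strand of the gene, with the core TGGGAA or its reverse complement TTCCCA in capitals. Asb2 has 2 annotated starts, of which the upstream one is given.
Asb2, chr12:103356002-103356251, minus strand: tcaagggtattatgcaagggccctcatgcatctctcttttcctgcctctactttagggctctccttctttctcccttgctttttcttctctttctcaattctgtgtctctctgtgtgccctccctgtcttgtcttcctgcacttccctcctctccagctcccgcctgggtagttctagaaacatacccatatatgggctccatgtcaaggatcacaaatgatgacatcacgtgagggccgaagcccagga
Dtx1, chr5:120711670-120711919, minus strand: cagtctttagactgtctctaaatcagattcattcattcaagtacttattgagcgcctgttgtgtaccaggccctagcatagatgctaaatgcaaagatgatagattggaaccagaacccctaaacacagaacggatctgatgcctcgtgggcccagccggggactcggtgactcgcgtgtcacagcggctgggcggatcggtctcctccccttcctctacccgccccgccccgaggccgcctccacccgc
Hes5, chr4:154960673-154960922, plus strand: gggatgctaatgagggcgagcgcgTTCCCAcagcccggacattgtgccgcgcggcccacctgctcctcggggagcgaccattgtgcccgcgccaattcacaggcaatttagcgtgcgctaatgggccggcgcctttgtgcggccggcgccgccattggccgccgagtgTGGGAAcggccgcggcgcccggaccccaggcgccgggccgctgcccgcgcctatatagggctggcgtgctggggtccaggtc
The core began 226 and 82 bases before the start in the Hes5 window, which also held GTGGGAA. In the windows of Asb2, both starts included, and of Dtx1 neither was found. Searched on both strands, GTGGGAA was in 5.42% and TGGGAA in 21.6% of all 32851 windows of this length, and every window with GTGGGAA also holds the core. Among the genes higher at both stages, 81 matched with 96 windows, of which 10.4% held GTGGGAA and 20.8% the core. Counted by gene, 8.64% of these 81 held GTGGGAA and 19.8% the core, against 6.18% and 24.1% of all genes with a window. Among the genes lower at both stages, 30 matched with 43 windows, of which 0.0% held GTGGGAA and 27.9% the core. A match describes letters and shows no binding.

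Of 25 measured genes of the NOTCH pathway 4 were called higher (Asb2, Dtx1, Hes5 and Hes1) and 1 lower (Aph1a) with the arrays paired, against 3.57% of all genes called higher and 2.99% lower. Asb2 and Dtx1 had been set beforehand as markers of the lineages and are in the marginal zone list too. The count is therefore no independent evidence about the pathway. The list's median difference was -0.06, against 0.0078 over all genes. Hes5, a transcriptional repressor, was 0.77 and 0.21 in T2MZ, against 0.33 and 0.06 in T2FO, and 1.21 and 1.09 in MZ, against -0.91 and -0.68 in FO. It separated the mature arrays widely (1.94 ± 0.17, adjusted p = 0.000504) and the transitional ones by 0.30 ± 0.17 (adjusted p = 0.599), and the difference between the stages was called (adjusted p = 0.0157). A second Hes5 probe set gave 0.41 at the transitional and 0.85 at the mature stage, so the call between the stages rests on 1 probe set. Hes1, of the same family, was -0.17 and 0.26 in T2MZ, against -0.25 and -0.36 in T2FO. In the mature arrays it was 1.63 and 0.56 in MZ, against -0.28 and -0.63 in FO. It was called at the mature stage (1.55 ± 0.22, adjusted p = 0.00442). The receptors Notch1 and Notch2 differed by 0.08 each and Rbpj by 0.23, none of them called. Dll1, a ligand of NOTCH2, was called lower at the mature stage (-0.85). Aph1a, a subunit of the secretase that cleaves NOTCH, differed by -0.56 ± 0.12 (adjusted p = 0.029), was called at neither stage, and rests on 1 probe set, since its others gave 0.07 and -0.05.

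Differences at 1 stage only were counted where that stage was called, the other was not, and the difference between the stages was called too. The difference between the stages was called for 245 genes (1.35%), positive for 157 (0.863%) and negative for 88 (0.484%). Only the mature stage was called for 144 of these (0.792% of genes), 87 higher (0.478%) and 57 lower (0.313%), and only the transitional stage for 55 (0.302%), 20 higher (0.11%) and 35 lower (0.192%). A further 815 genes were called at the mature stage (4.48%) and 120 at the transitional stage (0.66%) with no call for the difference between stages, so for them a difference between the stages was not shown. With the group means limma called no difference between the stages (0%). An unadjusted p under 0.05 was found for 380 genes (2.09%), fewer than that threshold would give with no difference at all. None was called either with a transitional pair left out or with 1 block and the mature numbers crossed.

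Ackr3, a scavenging receptor for the chemokine CXCL12, gave the largest mature difference of the named genes. It was -0.92 and 1.09 in T2MZ, against -1.46 and 0.07 in T2FO, and 3.52 and 1.83 in MZ, against -2.24 and -2.81 in FO. The mature difference was 5.20 ± 0.26 (adjusted p = 3.98e-05) and the transitional one 0.78 ± 0.26 (adjusted p = 0.233), with the arrays paired. Tsga13, a gene known from testis, was 0.82 and 2.04 in T2MZ, against -0.08 and 0.10 in T2FO, and 5.23 and 3.64 in MZ, against -0.33 and -0.28 in FO. In T2MZ it already lay above T2FO on both arrays, by 1.42 ± 0.36 (adjusted p = 0.111).

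In a second pattern the MZ arrays were near the transitional ones and the FO arrays far below. Dnase1l3, a secreted DNase, was -0.02 and -0.20 in T2MZ, against 0.72 and 0.16 in T2FO, and 0.67 and 0.64 in MZ, against -2.21 and -2.37 in FO. Nedd4, a ubiquitin ligase, was -0.65 and 0.32 in T2MZ, against 0.07 and 1.00 in T2FO, and 0.90 and 0.52 in MZ, against -2.30 and -2.22 in FO. Both were lowest in FO. Mgst1 (a glutathione transferase), Fabp5 (a carrier of fatty acids) and Csf2rb (the shared beta chain of the IL-3, IL-5 and GM-CSF receptors) had FO values between -2.89 and -1.48, below every other array of the 8. A second Mgst1 probe set had a mature difference of -5e-04, against 0.99 and 1.40 for those of Fabp5 and Csf2rb. The Mgst1 call thus rests on 1 probe set. Dnase1l3, Csf2rb, Ube2e2 (a ubiquitin-conjugating enzyme) and Flacc1 were among the 9 genes called at the mature stage with the group means as well, with differences of 2.94, 3.20, 3.36 and 2.63. A second probe set of Flacc1 gave 0.26 at that stage and a second of Dnase1l3 gave 0.94. The remaining 5 of the 9 were Rgs10, S1pr3, Myof, Asb2 and Ptpn14.

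The follicular list had no member called at the transitional stage and 7 of 12 called lower at the mature stage (2.93% of all genes). Its members were picked with results of these arrays known, and 1 of the 7 is the sorting marker Fcer2a. The count is therefore no independent evidence of a direction. Zfp318, which is needed for the alternative splicing that yields IgD, was 0.56 and 1.55 in T2MZ, against -0.47 and 0.36 in T2FO, and -0.99 and -0.54 in MZ, against 2.45 and 1.59 in FO. The mature difference was -2.78 ± 0.27 (adjusted p = 0.00085), while T2MZ stood 1.11 ± 0.27 above T2FO without being called (adjusted p = 0.0994). The 4 other probe sets of Zfp318 had mature differences of -2.76 to -1.22. Bach2, a repressor of plasma cell fate, had a mature difference of -1.85, the integrin gene Itgb7 of -1.56 and the interleukin 4 receptor gene Il4ra of -1.20. Satb1 (-1.18) and Gpr183 (-0.75), the oxysterol receptor that guides B cells within follicles, made up the 7 with Fcer2a. Ccr7 (-1.31) and Klf2 (-1.01) were not called. Outside the list, Crisp3 was -1.30 and -0.34 in MZ, against 2.23 and 2.43 in FO, and Kctd14 was -3.29 and -2.34 in MZ, against 0.45 and 0.17 in FO. Rflnb, which binds filamin, and Crip3, a LIM domain protein, had mature differences of -1.93 and -1.82.

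Most of the named genes lower at the transitional stage only were high in T2FO and low in the other 3 subsets. Wfdc21 was -0.02 and 0.02 in T2MZ, against 2.91 and 2.52 in T2FO, and -0.22 and -0.66 in MZ, against -0.70 and -0.91 in FO. Sspn, a muscle membrane protein, was -0.86 and -0.27 in T2MZ, against 2.16 and 2.50 in T2FO, and Neo1, the receptor neogenin, was -1.80 and -1.04 in T2MZ, against 0.74 and 1.35 in T2FO. Their transitional differences were -2.71 ± 0.18, -2.89 ± 0.25 and -2.46 ± 0.16 (adjusted p = 0.00118, 0.00168 and 0.00118) and their mature ones 0.37, -0.23 and 0.33. T1 arrays were near or above T2FO, with 4.17 and 2.67 for Wfdc21, 3.17 and 2.85 for Sspn, and 1.38 and 1.59 for Neo1. For 5 of the 6 named genes lower at this stage only, both T2MZ arrays lay below both T1 arrays. For 3 of the 6 they lay below both T3 arrays, and the T2MZ arrays had helped to choose the genes. Reln and Gfi1 belonged to the same class with transitional differences of -2.03 and -1.94. Jchain, the joining chain of secreted IgM and IgA, varied widely between replicates, with -4.77 and -0.31 in T2MZ, against -0.81 and 1.22 in T2FO. The other probe sets of Sspn and Neo1 had transitional differences of -0.41 to 0.23, so these calls rest on 1 probe set each.

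Higher at the transitional stage only were Pbx3, a homeobox gene, with 0.75 and 1.03 in T2MZ, against -0.75 and -0.81 in T2FO, and Ccr6, the receptor for CCL20, with 0.47 and -0.22 in T2MZ, against -1.04 and -1.51 in T2FO. Their transitional differences were 1.67 ± 0.17 and 1.40 ± 0.17 (adjusted p = 0.00256 and 0.00515). Their mature differences of -0.32 and -0.44 were not called. Both T2MZ arrays lay above both T1 arrays for these and for Gsn, Hspa1a and Fxyd5, the other named genes of the class. For 2 of the 5 they lay above both T3 arrays, and the T2MZ arrays had helped to choose the genes. Gsn, which severs actin filaments, was 1.96 and -0.43 in T2MZ, against 0.14 and -1.90 in T2FO, so the pairs moved together while the groups overlapped.

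For 22 genes (0.121%) the stages were called with opposite signs. Stat4, which relays interleukin 12 signals, was 0.14 and 0.88 in T2MZ, against -1.60 and -0.77 in T2FO, and 0.13 and 1.33 in MZ, against 1.42 and 2.40 in FO. Mapk12, a p38 kinase, was 1.18 and 0.77 in T2MZ, against -1.24 and -0.67 in T2FO, and -0.59 and -0.19 in MZ, against 1.28 and 1.51 in FO. In both genes FO arrays lay far above T2FO arrays, whereas MZ arrays overlapped T2MZ arrays for Stat4 and lay below them for Mapk12. A second Mapk12 probe set had stage differences of 0.15 and 0.05. Eaf2, which aids transcription elongation, went the other way, with -0.87 and -0.29 in T2MZ, against 0.75 and 1.08 in T2FO, and -0.15 and 0.15 in MZ, against -2.42 and -1.94 in FO. Tmem26 and Adm followed Eaf2, and the heat shock gene Hspa1b followed Stat4.

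The marginal zone list had 16 of 19 measured members called higher, against 3.57% of all genes, and none lower, with a median lineage difference of 1.88. Its members were picked with results of these arrays known, so this count is no independent evidence of a direction. The 10 called at both stages were Cd9, Cd36, S1pr3, Asb2, Dtx1, Tlr3, Myof, Tm6sf1, Nebl and Zc3h12c. S1pr1 (0.14), Rhoc (0.24) and the cannabinoid receptor gene Cnr2 (-0.09) were not called. Zc3h12c shows how far replicates of a group could part: it was 0.00 and 2.66 in T2MZ, against -1.50 and 0.69 in T2FO, and 4.02 and 1.45 in MZ, against -0.02 and -2.01 in FO, so all 4 pairs had the same direction although the lineages overlapped.

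**Figure D5:**
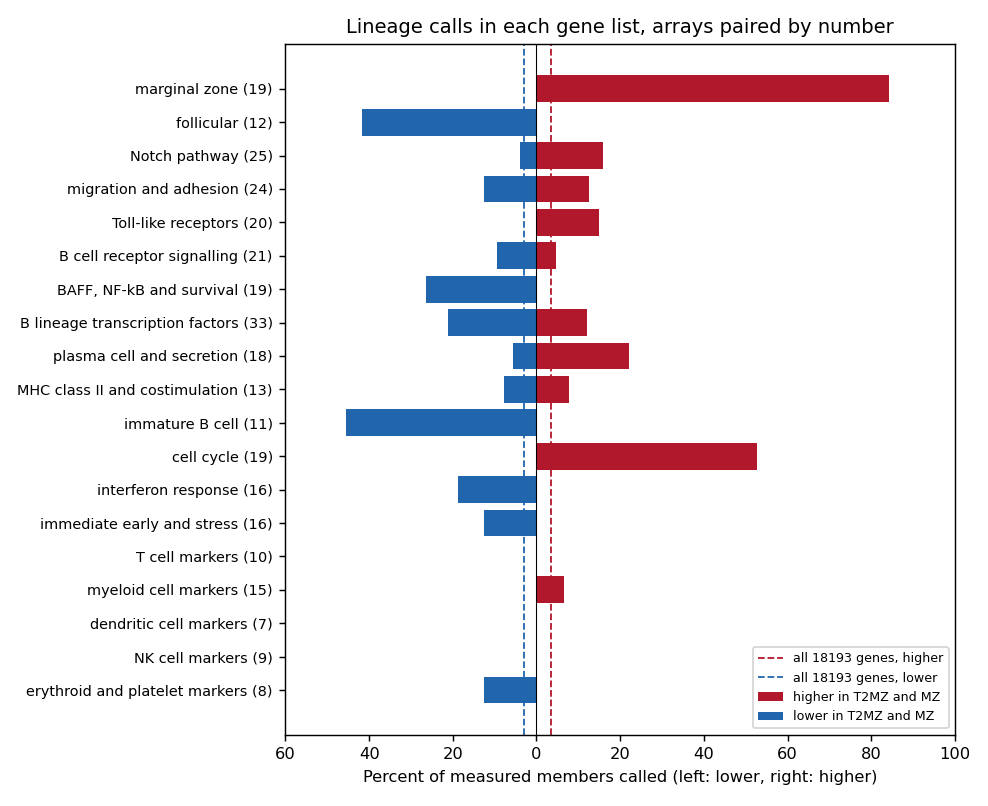
Percent of the measured members of each gene list called higher (right, red) or lower (left, blue) in the marginal zone lineage with the arrays paired. Dashed lines give the share over all 18193 genes, 3.57% higher and 2.99% lower, and the number of measured members stands beside each list. Marginal zone and cell cycle lists reach furthest to the right, immature B cell and follicular lists furthest to the left. List members were picked with results of these arrays known.

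Of 24 genes of migration and adhesion 3 were called higher (Rgs10, S1pr3 and Ackr3) and 3 lower (S1pr4, Itgb7 and Rgs2). Over all genes 3.57% were called higher and 2.99% lower. S1pr3 and S1pr4, receptors for the same lipid, thus differed in direction. S1pr4 was 0.46 and -1.71 in T2MZ and -2.02 and -1.04 in MZ, against 1.22 and -1.01 in T2FO and -1.01 and 0.38 in FO, lower in all 4 pairs (-0.97 ± 0.12, adjusted p = 0.00241) with lineages that overlapped. The integrin gene Itgb1 was called higher at the mature stage (1.12) and Itgb7 lower (-1.56).

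Among 20 genes of the Toll-like receptors and their partners 3 were called, all higher, against 3.57% of all genes called higher. Tlr3, a sensor of double-stranded RNA, was 0.41 and 1.47 in T2MZ, against -0.73 and -0.21 in T2FO, and 3.67 and 3.77 in MZ, against 0.45 and -0.23 in FO. The difference was called at both stages (1.41 ± 0.22 and 3.61 ± 0.22, adjusted p = 0.017 and 7.26e-05). A second Tlr3 probe set gave 0.19 at the transitional and 2.46 at the mature stage, so the transitional call rests on 1 probe set. Ly96, which pairs with TLR4 in sensing lipopolysaccharide, was called at the mature stage only (2.62 ± 0.23, adjusted p = 0.00042), with 0.91 and 1.52 in MZ, against -1.23 and -1.59 in FO. Tlr7, a sensor of single-stranded RNA, had a lineage difference of 0.71. Tlr4 (0.16), Tlr9 (0.01), Cd180 (0.30) and Myd88 (-0.03) were not called.

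Of 33 transcription factors of B cells 4 were called higher and 7 lower, against 3.57% and 2.99% of all genes. Ahr, the receptor for aryl hydrocarbons, was -0.13 and 2.57 in T2MZ, against -0.91 and 1.04 in T2FO, and 3.74 and 2.29 in MZ, against -0.29 and -0.83 in FO. It was called at the mature stage (3.57 ± 0.25, adjusted p = 0.000172), but its second probe set gave 0.60 there. Id2 (1.58), Nfatc1 (1.07) and Myc (0.96) were the other higher ones. Sox4, a factor of immature lymphocytes, was -0.61 and 0.08 in T2MZ, against 0.96 and 2.19 in T2FO, and -2.03 and -2.12 in MZ, against 0.82 and -0.08 in FO. It was lower at both stages (-1.84 ± 0.23 and -2.44 ± 0.23, adjusted p = 0.00511 and 0.000616). The other Sox4 probe sets had transitional differences of -1.26 to 0.12 and mature ones of -0.79 to 0.10, so the mature size rests on 1 probe set. Bcl6, the repressor that germinal centre cells need, was lower at the mature stage (-1.59 ± 0.16, adjusted p = 0.00085), with -0.49 and -1.32 in MZ, against 1.14 and 0.24 in FO. Lef1 (-0.86), Fli1 (-0.68), Runx1 (-0.54) and Mef2c (-0.50) were lower over the lineages, as was Bach2. Pax5 (-0.42), Ebf1 (-0.17), Irf4 (0.10) and Foxo1 (-0.27) were not called.

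The immature B cell list had 5 of 11 members called lower (Sox4, Cd93, Lef1, Vpreb3 and Myb), against 2.99% of all genes, and none higher. Cd93 is a sorting marker, and list members were picked with results of these arrays known, so the count is no independent evidence of a direction. Myb was lower at the transitional stage alone, with -0.70 and -0.05 in T2MZ, against 1.03 and 1.32 in T2FO. Its other probe sets had transitional differences of -1.30 and -0.51 but lineage differences of -0.025 and -0.06. The lineage call of Myb thus rests on 1 probe set. In the list of survival and NF-kB genes 5 of 19 were called lower, against 2.99% of all genes, and none higher. All 5 differed by less than 0.8: Birc3, Mcl1, Bcl3, Nfkbia and Tnfrsf13c, the receptor for the survival factor BAFF. Of the 21 genes of B cell receptor signalling Cd81 was called higher (0.58), 4.76% of the list, and Syk (-0.64) and Ptpn6 (-0.45) lower, 9.52%. Over all genes 3.57% were called higher, near the share in this list, and 2.99% lower.

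Of 18 genes of plasma cells and secretion 4 were called higher and 1 lower, against 3.57% and 2.99% of all genes. Prdm1, which encodes the repressor BLIMP-1 that drives plasma cell differentiation, was -1.13 and 0.05 in T2MZ, against -0.80 and -0.12 in T2FO, and 1.24 and 1.03 in MZ, against -0.58 and -1.15 in FO. It separated the mature arrays (2.00 ± 0.19, adjusted p = 0.000629) and not the transitional ones (-0.08 ± 0.19, adjusted p = 0.925). Cd9, Mzb1 (1.03) and Pdia4 (1.15), the last 2 working in the endoplasmic reticulum, were higher, and Sdc1, the gene of the plasma cell marker CD138, was lower (-1.33). Xbp1 (0.02) and Hspa5 (0.21) were not called. Among 13 genes of antigen presentation Cd86, a costimulatory ligand, was called higher at both stages (0.94 and 1.38). Ciita, the switch for class II genes, was lower over the lineages (-0.95), with -0.07 at the transitional and -1.82 at the mature stage. H2-Ab1 was called lower at the mature stage (-1.33). H2-Aa (0.07) and H2-Eb1 (0.03) had no call over the lineages. Of the 13 genes 1 was called higher and 1 lower over the lineages, 7.69% each, against 3.57% and 2.99% of all genes.

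In the interferon list 3 of 16 were called lower (Rsad2, Usp18 and Ddx58), and in the immediate early list 2 of 16 (Egr1 and Ier2), against 2.99% of all genes. Rsad2 was lower at the transitional stage only (-1.56 ± 0.18, adjusted p = 0.00399), and Mx1, an antiviral GTPase, was called with opposite signs, -0.87 at the transitional and 0.80 at the mature stage. Markers of other cells were read for the same arrays. No T cell (10 genes), dendritic cell (7) or NK cell (9) marker was called over the lineages, against 6.56% of all genes. At that share lists this short may hold no call, so purity cannot be read from it. At the mature stage the T cell marker Cd5 (0.82) and the NK cell marker Gzma (1.26) were called higher, against 3.22% of all genes. Over the lineages 1 of 15 myeloid markers was called (Cd68, higher) and 1 of 8 erythroid and platelet markers (Car2, lower). Over all genes 3.57% were called higher and 2.99% lower. The mean of the myeloid list was 2.29 in MZ replicate 2 and 1.09 in FO replicate 2, and between -0.33 and 0.66 in the other 6 arrays. The mature differences of Cd68 (1.55) and Csf1r (1.18), both called, moved with it, and its part in other mature differences was not tested. The mean of the NK list was 1.22 in T2FO replicate 2 and between -0.07 and 0.54 elsewhere, and its part in the transitional differences was not tested.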

How the data were processed

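Sorted splenic B cells were measured on Affymetrix mouse genome arrays after 2 rounds of amplification from an oligo(dT) primer, per the labels' protocols. Per the submitters' processing notes, RMA was used by the authors to make the log2 values. The sources used here do not give its version or the log base, which was taken as 2. The deposited values were found centred per probe set on the median of 24 arrays (at most 5e-07 in size), so depth and background are unknown and no filter on dim probe sets was possible. Of 45101 probe sets 34945 had 1 gene, 932 several, 9160 none listed, and 64 were controls. Each of 18193 genes was represented by its probe set of largest standard deviation over the 12 B6 arrays. The differences were fitted with limma 3.58.1 (R 4.3.3), as 4 group means with eBayes and Benjamini-Hochberg adjustment. A second fit added the replicate number within each stage as a block, after the check of same-numbered arrays (correlations 0.89 and 0.75). Both fits were tested on simulated data in which same-numbered arrays of a stage shared an effect by construction. That test cannot show whether the pairing holds for these arrays. Members, lists and tests were chosen with earlier results of these data known. Named genes are the 4 markers, the sort genes, the largest called differences of each class and up to 8 called members of each list, a rule for the second fit that was set after its values were seen. Alternatives varied the probe set, arrays, block, scaling, filter and threshold. Promoter windows are from RefSeq (GRCm38.p6), and Hes1 and Cd1d1 are not shown.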

Additional observations from a re-analysis of the deposited data

Results flagged for a closer look

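The lineage difference itself differed between the stages for 60 of the named genes, by the called test of the mature difference minus the transitional difference with the arrays paired by number. Across all 18193 genes 245 were called in this test (1.35%), against 0 with the group means. Several classes of named genes were chosen by the call or size of this same difference. The count of 60 follows in part from that choice and cannot be compared with the share over all genes. Values are on the log2 scale, and a positive one means that MZ minus FO exceeded T2MZ minus T2FO.

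The largest positive values were those of Jchain 4.80, Ackr3 4.42, Mgst1 3.72, Eaf2 3.68, Nedd4 3.67, Dnase1l3 3.49, Tsga13 3.32, Fabp5 3.31, Adm 3.31, S1pr3 3.11, Wfdc21 3.08, Csf2rb 3.002. Smaller positive values belonged to Tmem26 2.93, Myof 2.93, Ube2e2 2.84, Neo1 2.79, Gfi1 2.77, Sspn 2.66, Reln 2.53, Ahr 2.42, Oosp1 2.29, Ly96 2.24, Tlr3 2.20, Cd9 2.18, Rundc3b 2.15, Rgs10 2.11, Rsad2 2.10, Prdm1 2.09, Zc3h12c 2.01. The lowest positive ones were Myb 1.96, Ackr2 1.95, Nuak1 1.84, Flacc1 1.78, Cacna1h 1.70, Ighm 1.70, Nebl 1.68, Hes5 1.65, Slamf9 1.65, Smyd2 1.60, Cd300lf 1.44, Ptpn14 1.17. Fcer2a and Ighm are genes of the sort itself. Some values rest on 1 probe set, as for Mgst1 and Myof, whose second ones gave -0.16 and -0.11. The other probe sets of Nedd4 gave 2.27 and 2.80. Negative values were found for Crisp3 -4.05, Zfp318 -3.89, Mapk12 -3.72, Fcer2a -3.68, Rflnb -3.02, Stat4 -2.87, Hspa1b -2.86, Crip3 -2.67, Kctd14 -2.65, Gsn -2.19, Fxyd5 -2.08, Hspa1a -2.07, Pbx3 -1.99, Marveld2 -1.95, Ccr6 -1.84, Itgb7 -1.71, Pxdc1 -1.52, Man1a -1.35, Bcl6 -1.22. All of these rest on 2 pairs of arrays at each stage, and none was called when 1 block crossed the mature numbers.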

How the results depend on the processing

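The pairing by number decided the counts. In the order lineage, transitional stage, mature stage, difference between the stages, both stages and 1 stage only, the group means called 7, 0, 9, 0, 0 and 0 genes, and the replicate block within each stage called 1194, 335, 1119, 245, 138 and 199. With stage and number as a random block the counts were 521, 122, 416, 71, 47 and 61. A replicate block over both stages as numbered left 3 lineage and 4 mature calls and 0 in the other counts. With the mature numbers crossed it gave 231, 10, 162, 0, 5 and 0, an alternative chosen after seeing the data.

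For the group means, averaging all probe sets of a gene gave 23 lineage and 23 mature calls, a fit to all 12 B6 arrays 40 and 39, the 5′ minus 3′ control signal as a covariate 167 and 114, and genes of above-median spread 12 lineage calls. All 24 arrays in 1 fit gave 175, 25, 172, 13, 5 and 10, and an additive model of stage and lineage 1 lineage call. Leaving out 1 array gave 0 lineage calls in each case (0 to 0), and 0 to 4 at the mature stage, where the lone array of a group is assumed to vary like the others. With the arrays paired, leaving out 1 pair gave 172 to 2276 lineage calls, 0 to 1107 transitional, 407 to 1974 mature, 0 to 957 between the stages, 0 to 335 at both and 0 to 780 at 1 stage. The counts of 0 came without either transitional pair, the highest without replicate 1 of the mature pairs. Averaging probe sets left 163 genes called between the stages and 125 at 1 stage only. A difference of at least 1 left 273 lineage, 574 mature and 91 both-stage calls. Quantile scaling, robust eBayes and the probe set of largest spread over 24 arrays kept all counts of the paired reading within 1.5 times.

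Of single genes, the lineage sign of Ighm turned with averaged probe sets (-0.0497) and ranged from -0.56 to 1.00 without 1 array, that of Cd24a from -0.16 to 0.45, that of Ptprc from -0.43 to 0.0506 and that of Eomes from -0.53 to 0.0392. None of these was called. Rsad2 gave 0.0256 with the probe set of largest spread over 24 arrays in both readings. Over 108 paired results, 844 alternative values kept direction and call, 235 lost the call and 1 turned. The number of arrays limits the precision, and depth is unknown.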
